A study of Mus musculus with 10 samples.

Results

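Replication-dependent histone genes supply the bulk of histone protein to dividing cells, and they were examined here in mouse E14 embryonic stem cells, an established line derived from the inner cell mass. Members were the protein-coding genes whose symbol starts with Hist1h, Hist2h, Hist3h or Hist4h in GENCODE vM21, which gave 67 of the 55487 genes in the RNA-seq tables and 67 of 21897 protein-coding genes. No measured value entered that rule. The 67 comprised 6 linker histone H1 genes, 18 H2A, 18 H2B, 12 H3 and 13 H4 genes. The series holds 10 samples, most of them maps of R-loops (RNA paired with one DNA strand), which were not analysed here. The data described come from 3 RNA-seq replicates of 1 group, cells cultured with serum, LIF and inhibitors of GSK and MEK, from which total RNA was taken, freed of ribosomal RNA and sequenced by strand. With 1 group, no treatment or genotype was compared, and every spread given is that between replicates. Nothing in the labels says whether the replicates were separate cultures, so p-values measure only the spread between these samples, which may be technical.

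Core histones H2A, H2B, H3 and H4 form the protein spool around which DNA is wound, and linker histone H1 binds the DNA between spools. Their genes lie in clusters, have almost no introns, and are transcribed mainly in S phase, when new DNA must be packaged. Their mRNAs are the only known animal mRNAs that end in a conserved stem-loop and not in a poly(A) tail. Stem-loop binding protein (SLBP) and the U7 small nuclear ribonucleoprotein direct the cut just downstream of that hairpin. The libraries were made from total RNA, with no selection for poly(A), so such mRNAs were kept.

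Depth fell from 11420425 estimated counts in replicate 1 to 6467405 in replicate 2 and 5787357 in replicate 3. On the CPM scale, a count divided by the library total, a floor of 3 counts stood at 0.263, 0.464 and 0.518 in the same order. TPM is the transcript abundance per unit of length that the authors deposited, scaled to the same total in every library. All 6 embryonic stem cell markers were present, at mean TPM of 30.54 (Tfcp2l1) to 182.77 (Nanog). None of 3 endoderm, 2 mesoderm and 2 neural markers reached a mean TPM of 1, and both mesoderm markers lay at or below the count floor. Of 3 fibroblast markers 1 did, Thy1, at 3.02, 3.30 and 1.19 TPM. In most histone genes replicate 3 was highest and replicate 1 lowest, as described below. Replicate 3 was the shallowest library and replicate 1 the deepest.

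The hairpin that defines this family was sought in the genome within 100 nt after the stop codon of each member. The pattern was a stem of 6 bases that starts with GG and continues with 3 pyrimidines and T, a loop of 4 bases that starts with T, and the exact reverse complement of the stem. It was found in 62 of 67 members (92.537%) and in 3 of 21685 other protein-coding genes (0.014%), namely H2afx, H2bfm and Ly6f. H2afx, the damage-responsive H2A variant, is itself known to make a stem-loop mRNA. The hairpin began 21 to 58 nt after the stop codon, with a median of 31 nt. Its common forms are shown as DNA, 5′ to 3′, with the stem in capitals and the loop in lower case, because the stem letters separate the H4 genes from the rest. Within a class, members differ in the loop, and H4 genes also in the stem.
Hist1h3h and 37 other genes of H1, H2A, H2B and H3: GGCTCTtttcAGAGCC
Hist1h2bl and 8 other genes of H1, H2A, H2B and H3: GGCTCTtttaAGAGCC
Hist1h4n and 7 other H4 genes: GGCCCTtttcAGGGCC
Hist1h4b and Hist1h4j: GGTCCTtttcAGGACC
Hist1h4i and Hist2h4: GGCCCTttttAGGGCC
Hist1h3g: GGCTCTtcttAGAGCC
Hist1h4a: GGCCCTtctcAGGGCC
Hist2h2ac: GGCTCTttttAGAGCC

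All 49 hairpins of H1, H2A, H2B and H3 genes had the stem arm GGCTCT. The 13 H4 hairpins had GGCCCT in 11 genes and GGTCCT in 2. The loop was TTTC in 48 of the 62 hairpins and TTTA in 9. In GRCm38 the Hist1h3h hairpin lies at chr13:21718095-21718110 on the plus strand, the Hist1h4n hairpin at chr13:21831798-21831813 on the minus strand and the Hist1h2bl hairpin at chr13:21715718-21715733 on the minus strand. No match was found for Hist1h2an, Hist1h2bp, Hist1h2bq, Hist1h2br and Hist2h2be, which says only that these letters are not in this window. The window followed the stop codon of the transcript with the longest coding sequence, and other stop codons were not searched. In Hist1h2bp, Hist1h2bq and Hist1h2br that transcript has 2 exons and predicts 138, 134 and 134 amino acids.

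Promoters, taken from RefSeq (GRCm38.p6) as 250 bases before to 50 after each start, were available for 62 of 67 members. Entries for Hist1h2bc, Hist1h3a, Hist1h3f, Hist2h2be and Hist2h4 were not among them. The short motifs below were counted on both strands: TATAAA, the core of the TATA box; CCAAT, bound by the factor NF-Y; and ATTTGCAT, the octamer bound by POU factors. CCAAT was present in 53 of 62 member promoters (85.48%), against 37.41% of 32851 RefSeq promoters. It was in all 50 promoters of H1, H2A, H2B and H3 genes and in 3 of 12 H4 promoters, so the H4 genes were again set apart. TATAAA was present in 35 of 62 (56.45%), against 13.62% of all promoters. The octamer was present in 7 of 18 H2A and 6 of 16 H2B promoters and in none of the 6 H1, 10 H3 and 12 H4 promoters, which makes 13 of 62 (20.97%) against 1.74% of all promoters. Divergent H2A and H2B neighbours have overlapping windows, so 1 match can count in both. Position within the window was not considered, and some TATAAA matches lie after the start, as in Hist1h4a, Hist1h2ak and Hist2h2aa1. A match is a description and not a binding site.

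The stretch between the RefSeq starts of Hist1h2ah (minus strand) and Hist1h2bk (plus strand), chr13:22035644-22035820, is shown on the plus strand as an example of the DNA that such a divergent pair shares. Capitals mark CCAAT on either strand, where ATTGG is its reverse complement, and the octamer. It holds 3 CCAAT matches and 1 octamer, the octamer starting 30 bases before the Hist1h2bk start.
Hist1h2ah to Hist1h2bk: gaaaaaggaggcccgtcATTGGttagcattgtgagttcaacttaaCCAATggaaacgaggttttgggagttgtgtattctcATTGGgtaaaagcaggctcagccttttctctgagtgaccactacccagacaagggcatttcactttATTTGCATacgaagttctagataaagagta

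The family was abundant. Of 67 members, 65 had a mean TPM of 1 or more, against 44.2% of the protein-coding genes. The members below it were Hist2h2be (0.24, 0.19 and 0.08 TPM) and Hist1h2br (0.10, 0 and 0 TPM). Hist1h2br is a near copy of Hist1h2bq, with 99.8% of its 50-base windows found in another gene, so its low value is uncertain. The median mean TPM of the members was 66.84, against 0.4633 over all protein-coding genes and 5.7267 over those that reached 1. Members took 19 of the 100 highest places among protein-coding genes by mean TPM but 3 of the 100 highest by mean count. Their transcripts are short, with a median of 534 nt against 2248 nt over the 12577 genes that passed the count filter.

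Summed over members, histone mRNA reached 10843, 10788 and 14494 TPM in replicates 1, 2 and 3. That was 4.74, 5.80 and 8.36% of the TPM of protein-coding genes, a mean of 6.30 ± 1.86% (SD, n = 3). By counts the members held 1.10, 1.31 and 2.01% of all counts (1.47 ± 0.478%). Replicate 3 was highest and replicate 1 lowest in both shares. The summed TPM of protein-coding genes itself fell, from 228844 through 186060 to 173275. Of all TPM, the members held 1.08, 1.08 and 1.45% in replicates 1, 2 and 3. Without replicate 3, the share of protein-coding TPM was 5.27%. The total was concentrated in few genes, and the 10 highest members held 54.8% of the members' TPM.

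**Figure D1:**
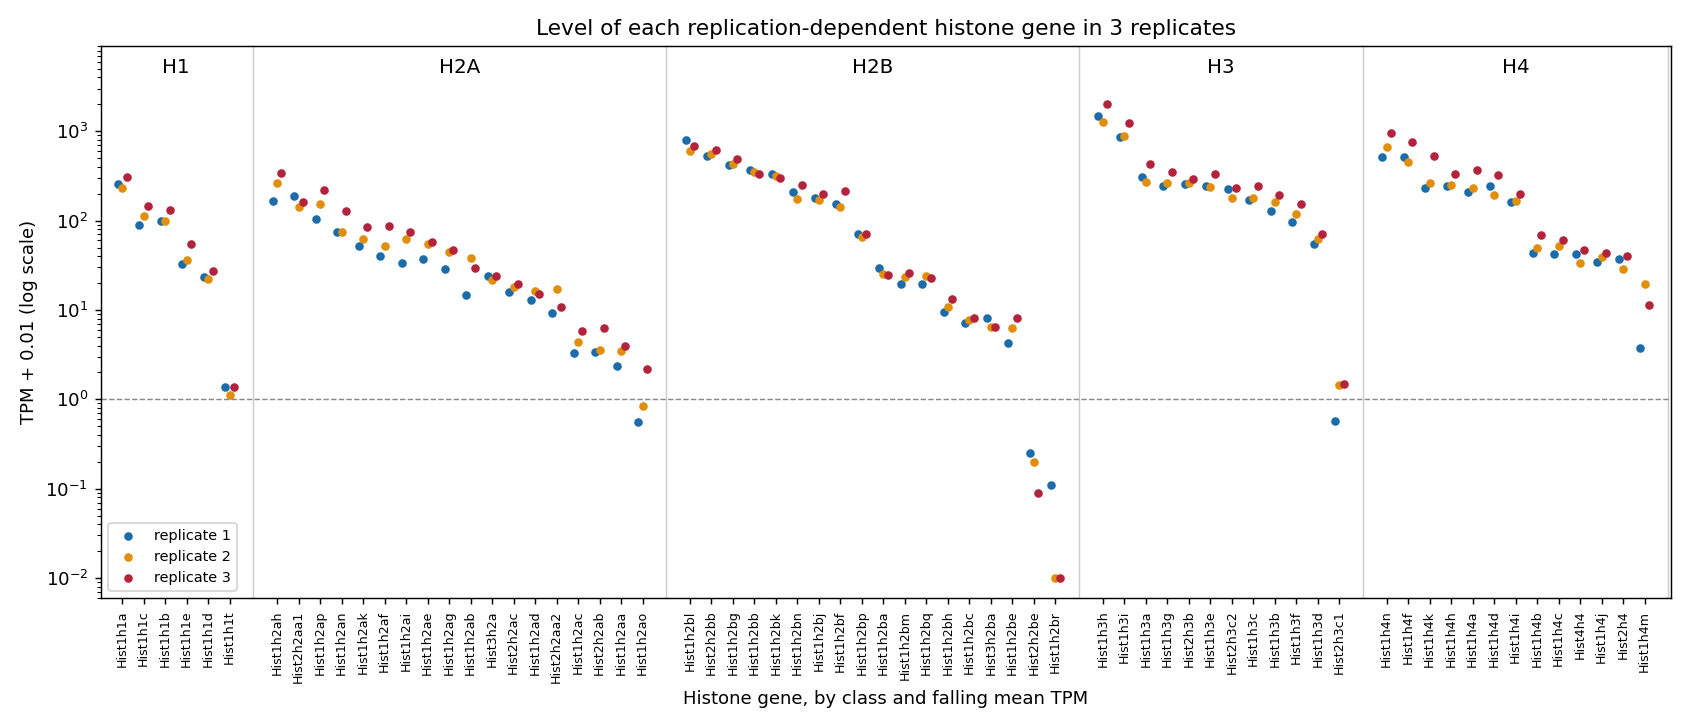
TPM (plus 0.01, log axis) of the 67 members in each replicate, with members ordered by mean TPM within their class, 1 point per replicate and a dashed line at a TPM of 1. Hist1h3h is highest at 1273.41 to 2004.50 TPM, and Hist2h2be and Hist1h2br are the only members with a mean under 1.

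H3 mRNA was the largest class, with a summed level of 4498 ± 897 TPM (SD, n = 3), 37.3 ± 1.00% of the members' TPM. That rank rests on genes with near copies: without members that share at least 50% of their 50-base windows with another gene, H3 took 17.7% and H4, at 42.2%, was the largest. Hist1h3h led the class at 1476.10, 1273.41 and 2004.50 TPM in replicates 1, 2 and 3, and ranked 6 among protein-coding genes. Hist1h3i followed at 854.75, 894.10 and 1234.66 TPM. Hist1h3a came next at 306.31, 267.06 and 425.31 TPM. In each of these genes replicate 3 was the highest. These 3 genes and Hist1h3g encode 1 predicted protein, histone H3.1, whereas Hist1h3b, Hist1h3c, Hist1h3d, Hist1h3e, Hist1h3f, Hist2h3b and Hist2h3c2 encode another, H3.2. The H3.1 genes held 70.9 ± 1.70% of H3 TPM but 52.3 ± 2.21% of H3 counts. The H3.2 genes held 29.0 ± 1.69% of H3 TPM and 47.5 ± 2.19% of H3 counts. The 12 H3 members ran from 1.15 ± 0.514 TPM (Hist2h3c1, all of whose 50-base windows recur in another gene) to 1585 ± 377 TPM.

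The replication-independent H3 genes, H3f3a and H3f3b, encode H3.3, which is loaded into chromatin outside S phase as well. H3f3a stood at 138.53, 113.47 and 132.31 TPM and H3f3b at 80.0 ± 8.12 TPM. The 12 H3 members together exceeded the sum of this pair in TPM 18.1-fold, 19.8-fold and 27.2-fold in replicates 1, 2 and 3 (21.7 ± 4.86). By CPM, which takes no account of length, the H3 members summed to 3876, 4556 and 7286. H3f3a had 202.0, 230.6 and 235.8 CPM and H3f3b 358.5, 414.8 and 348.5 CPM, so the excess was smaller on that scale.

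H4 mRNA summed to 2824 ± 775 TPM, 23.2 ± 2.21% of the members' TPM. All 13 H4 genes encode 1 predicted protein of 103 amino acids, so their mRNAs differ outside the protein they make. Hist1h4n was highest at 508.74, 658.77 and 946.39 TPM. Hist1h4f reached 512.39, 457.64 and 758.07 TPM, and Hist1h4k 232.54, 265.17 and 526.56 TPM. Replicate 3 was highest in each. At the low end, Hist1h4m stood at 3.78, 19.49 and 11.47 TPM, and 89.8% of its 50-base windows recur in another gene, most often in Hist1h4n. In turn, 85.6% of the windows of Hist1h4n recur, most often in Hist1h4m. The split of reads between the highest and the lowest H4 gene is thus uncertain. H3 exceeded H4 by 1.61 ± 0.135-fold in summed TPM, and in every replicate.

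H2B mRNA summed to 3110 ± 189 TPM, 26.2 ± 3.34% of the members' TPM. Hist1h2bl was highest at 802.82, 599.13 and 687.20 TPM. Hist2h2bb, from the smaller chromosome 3 cluster, reached 533.65, 558.48 and 623.48 TPM, and Hist1h2bg 418.08, 425.13 and 492.13 TPM. Hist1h2bl was highest in replicate 1 by TPM but in replicate 3 by CPM (464.9, 411.4 and 559.5), and the others were highest in replicate 3 on both scales. The class held 12 distinct predicted proteins, counted from the longest annotated coding sequence of each gene. Those of Hist1h2bp (138 amino acids) and of Hist1h2bq and Hist1h2br (134) came from transcripts of 2 exons, and other transcripts were not compared. The protein of Hist1h2bf, Hist1h2bj, Hist1h2bl and Hist1h2bn took 40.4 ± 2.63% of H2B TPM.

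H2A mRNA summed to 1054 ± 251 TPM, 8.72 ± 1.09% of the members' TPM, although the class has as many genes as H2B. Hist1h2ah was highest at 166.60, 265.29 and 336.64 TPM. Hist2h2aa1 reached 189.03, 142.18 and 161.20 TPM, and Hist1h2ap 104.50, 153.17 and 222.81 TPM. Hist2h2aa1 was highest in replicate 1 by TPM but in replicate 3 by CPM (201.4, 183.2 and 239.6), and both others were highest in replicate 3. The median H2A gene shared 73.0% of its 50-base windows with another gene, the highest of the 5 classes, and 9 H2A genes encode 1 predicted protein that took 41.9 ± 3.30% of H2A TPM. H2B exceeded H2A in summed TPM 3.89-fold, 2.81-fold and 2.49-fold in replicates 1, 2 and 3 (3.06 ± 0.733). By summed counts H2B exceeded H2A 2.65 ± 0.456-fold.

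H1 mRNA summed to 555 ± 93.8 TPM, 4.61 ± 0.049% of the members' TPM but 12.7 ± 0.367% of their counts. Hist1h1a, a linker histone gene with no 50-base window in any other gene, was highest at 253.60, 233.25 and 304.52 TPM. Hist1h1c reached 89.69, 113.38 and 144.65 TPM, and Hist1h1b 97.89, 97.76 and 130.56 TPM. Replicate 3 was highest in each. Hist1h1d shows how far annotated length sets the TPM: with a transcript of 7425 nt in the tables, it had 4613.93, 3071.41 and 3821.25 estimated counts but 24.4 ± 2.84 TPM. It held 27.9% of H1 counts and 4.42% of H1 TPM, whereas Hist1h1a held 24.9% of H1 counts and 47.7% of H1 TPM.

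**Figure D2:**
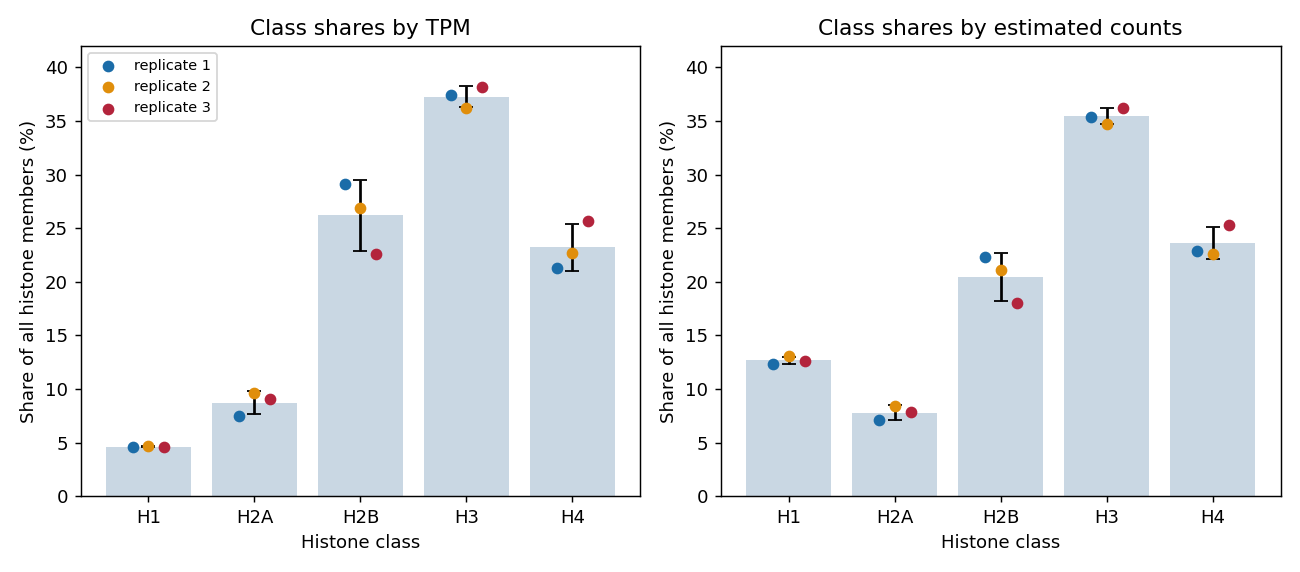
Share of the members' summed TPM and of their summed counts by class: bars are means of 3 replicates, error bars the SD, and points the replicates. H3 is the largest class on both scales (not so without members that share windows), and H1 moves from 4.61% of TPM to 12.7% of counts.

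Members known for roles in the germ line differed in level. Hist1h1t, the testis-specific H1, stood at 1.38, 1.10 and 1.35 TPM (29, 16 and 20 counts). Hist1h2aa, the testis H2A, stood at 2.34, 3.47 and 3.90 TPM. Hist1h2ba, the testis H2B and divergent neighbour of Hist1h2aa, was higher at 29.60, 25.13 and 24.54 TPM. It ranked 1084 among protein-coding genes by mean TPM, and 38.2% of its 50-base windows recur in another gene. No replicate of Hist1h2ba overlapped with any replicate of the other pair.

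Most of the mRNA came from the Hist1 cluster on chromosome 13 (chr13:21715763-23934851 in GRCm38), whose 54 members held 88.5 ± 1.19% of the members' TPM. The 10 Hist2 members (chr3:96219865-96270132) held 10.9 ± 1.12%. The 2 Hist3 members (chr11:58948920-58956830) held 0.256 ± 0.045%, and Hist4h4, the single Hist4 member (chr6:136801553-136804415), held 0.342 ± 0.042%. By counts the shares of Hist1, Hist2, Hist3 and Hist4 were 85.6, 11.2, 1.00 and 2.21%. Hist4h4, at 3120, 1739 and 2423 counts and 40.9 ± 6.62 TPM, has an annotated transcript of 2863 nt.

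Gaps of over 100000 bp divide Hist1 into 4 stretches. The first (chr13:21715763-21837530, 18 members) held 42.9 ± 1.55% of the members' TPM and includes Hist1h3h, Hist1h3i, Hist1h4n and Hist1h2bl. The second (chr13:22035164-22043676, 5 members) held 8.11 ± 0.727%. The third (chr13:23531050-23764406, 29 members) held 37.3 ± 0.371% of TPM but 50.1% of counts. In the first stretch the median transcript was 420.5 nt long and the median gene shared 86.1% of its 50-base windows; in the third the values were 704 nt and 40.4%. The last (chr13:23933773-23934851) holds the testis pair Hist1h2ba and Hist1h2aa, at 0.252% of TPM.

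Where the annotated transcript ends differs between members and moved with their TPM. In 16 members it stops short of the hairpin's last base (before the hairpin in 14 and inside it in 2, Hist1h1a and Hist2h3b), with no 3′ UTR at all in 12, and these 16 had a median length of 396 nt and a median of 232.9 TPM. In 22 members it ends within 100 nt past the hairpin (median 483.5 nt and 162.3 TPM). In 24 it runs over 100 nt past it (median 1202.5 nt and 41.0 TPM). The median CPM, which takes no account of length, was 184.7, 166.9 and 176.4 in the same order. TPM and CPM thus order these sets of members differently.

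Many H2A and H2B genes sit head to head, and 12 such divergent pairs had starts 176 to 306 bp apart. H2B was higher than its H2A neighbour in TPM in every replicate in 8 of the 12. Hist1h2bl exceeded Hist1h2ai 12.8-fold, Hist1h2bf exceeded Hist1h2ad 11.3-fold and Hist1h2bg exceeded Hist1h2ae 9.10-fold, as geometric means of 3 replicates. At 21.9-fold, Hist1h2bq over Hist1h2ao was the widest gap in that direction, and both genes are near copies of others. Of the 50-base windows, 90.1% recur in another gene in Hist1h2ai, 82.8% in Hist1h2bl, 67.1% in Hist1h2ad and 65.8% in Hist1h2bf. For Hist1h2ae and Hist1h2bg the values were 43.2 and 49.7%, so all of these ratios depend on how reads were divided. Hist1h2bk exceeded Hist1h2ah 1.28-fold and in 2 of 3 replicates. H2A was higher in every replicate in 3 pairs, Hist2h2ac with Hist2h2be, Hist1h2an with Hist1h2bp and Hist1h2ap with Hist1h2br. Hist1h2br is listed at 0 in 2 replicates, so the last pair gives no ratio. Of its 50-base windows 99.8% recur in another gene, most often in Hist1h2bq. Of those of Hist1h2ap 93.1% recur, most often in Hist1h2ao. The split of reads between Hist1h2ap with Hist1h2br and Hist1h2ao with Hist1h2bq is thus uncertain, and so is the direction in each. The median log2 ratio of H2B to H2A over the pairs with a ratio was 2.22. Across the 12 pairs, Spearman's rho of mean TPM was 0.329, a description over genes that share libraries, lengths and sequence.

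**Figure D3:**
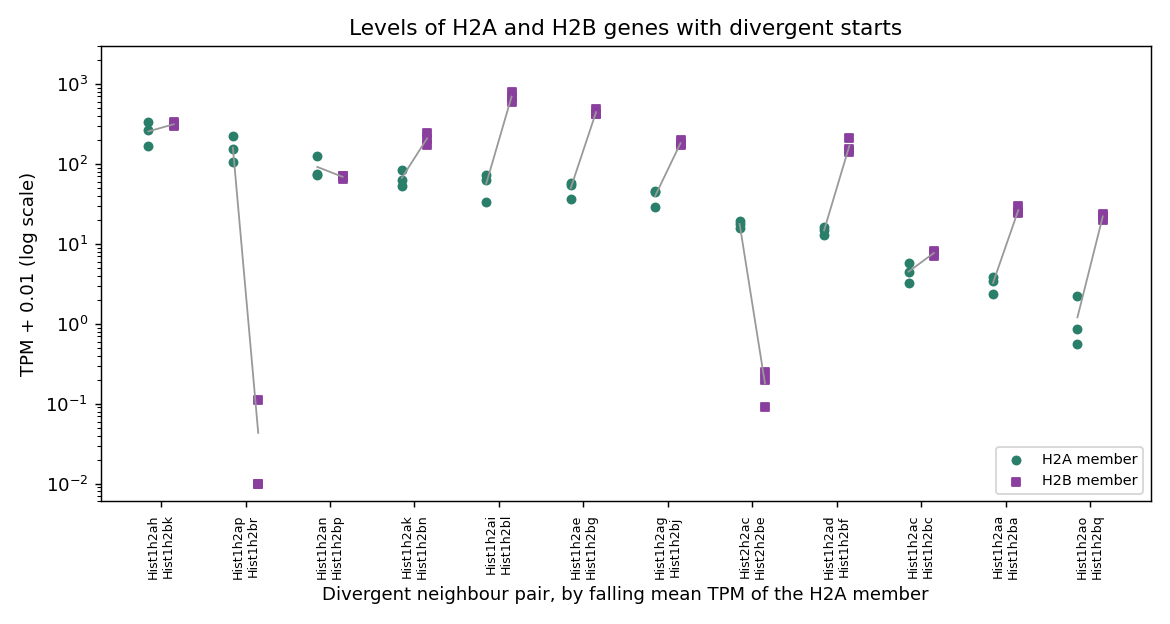
TPM (plus 0.01, log axis) of the H2A gene (circles) and the H2B gene (squares) of 12 divergent pairs, 1 point per replicate, with a line between the means of each pair. The squares stand above the circles in every replicate in 8 pairs, and Hist2h2be and Hist1h2br (a near copy of Hist1h2bq) lie far below their H2A neighbours.

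A share of the histone genes varied between the replicates. Of the 63 members that passed the count filter, 19 (30.2%) varied beyond the dispersion trend at an adjusted p under 0.05 in edgeR's goodness-of-fit test, against 1.84% of the 12577 genes tested. Hist1h2aa, Hist1h2ao, Hist2h2be and Hist1h2br did not pass the filter. At an unadjusted p under 0.05 the counts were 51 of 63 members and 875 of all genes (6.96%). In bulk RNA, more cells that make an mRNA and more of it per cell cannot be told apart. Members that divide reads between near copies are not independent of one another. By class, 10 of 16 H2A genes varied, 6 of 13 H4, 1 of 6 H1, 1 of 16 H2B and 1 of 12 H3. Without replicate 1 a single member varied, Hist1h4k; without replicate 2 there were 8, and without replicate 3 there were 11. Over all genes in the same fits 0.709, 0.474 and 0.683% varied, so without replicate 1 the members' share, 1.56%, lay near the background. That holds at the adjusted threshold only. At an unadjusted p under 0.05 in the same test, that fit had 26 of 64 members and 687 of 12558 genes.

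Among the H2A genes that varied, Hist1h2af had 25.0, 38.3 and 75.9 CPM in replicates 1, 2 and 3 (adjusted p = 3.44e-05). Hist1h2ai had 20.6, 45.3 and 63.0 CPM (adjusted p = 0.000102), and Hist1h2ah had 106.0, 200.8 and 300.6 CPM (adjusted p = 0.00145). Replicate 1 was lowest and replicate 3 highest in these genes. Hist1h2ap went from 85.6 through 150.6 to 255.2 CPM, and Hist1h2an from 44.8 through 54.0 to 108.4 CPM. Hist1h2ak had 32.0, 45.3 and 72.7 CPM, and Hist1h2ac 18.1, 30.2 and 44.7 CPM. Hist1h2ae had 49.7, 88.7 and 108.6 CPM, and Hist1h2ag 24.0, 43.8 and 53.6 CPM. Hist1h2ab had 11.8, 36.4 and 32.9 CPM, so its highest CPM was in replicate 2. Adjusted p for these last 7 genes ran from 0.000403 to 0.0184. The calls of Hist1h2an, Hist1h2ak, Hist1h2ae and Hist1h2ag did not hold after the correction for length given below.

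Among the H4 genes, Hist1h4k had 96.6, 128.5 and 309.7 CPM, with the smallest adjusted p of any member (1.42e-05). Hist1h4m, the near copy of Hist1h4n, had 2.37, 14.6 and 10.1 CPM (adjusted p = 1.71e-05), and in it replicate 1 stood below both others. Hist1h4n had 353.8, 547.0 and 922.5 CPM, and Hist1h4f 308.9, 327.7 and 642.0 CPM. Hist1h4a had 199.5, 268.8 and 484.4 CPM, and Hist1h4b 26.5, 36.6 and 60.1 CPM, with adjusted p of 0.00843 each. In these 4 genes replicate 3 was highest and replicate 1 lowest, and their calls did not hold after the correction for length given below. The 3 remaining members that varied were Hist1h1e at 137.8, 189.1 and 323.2 CPM, Hist1h2be at 23.9, 43.1 and 62.03 CPM, and Hist2h3c1 at 2.25, 7.03 and 8.14 CPM. Hist1h1e and Hist1h2be overlap on the minus strand in the annotation, so reads in the overlap cannot be told apart.

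The direction was shared by members that did not pass the test. On TMM-scaled log2 CPM, which sets the bulk of genes equal between libraries, 61 of 63 members were highest in replicate 3, against 40.6% of all genes tested. Replicate 1 was lowest in 56 of 63, against 33.5%. The median deviation of the members from their own mean was -0.48, -0.10 and 0.60 in replicates 1, 2 and 3, against 0.00, 0.01 and 0.00 for all genes tested. The log2 difference of replicate 3 over replicate 1 had a median of 1.11 over members and ranged from 0.29 to 2.18. The middle 50% of all genes lay between -0.28 and 0.25. Each of the 5 classes showed the same order, with median deviations in replicate 3 of 0.59 for H1, 0.67 for H2A, 0.45 for H2B, 0.65 for H3 and 0.63 for H4. The 5 tested members with whole counts, in which no read was divided, had medians of -0.27, -0.20 and 0.53.

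Short transcripts in general stood higher in replicate 3. Over 1802 other tested genes no longer than 1079 nt, the upper quartile of the members' lengths, the median log2 difference of replicate 3 over replicate 1 was 0.33, and 66.15% were highest in replicate 3. After a smooth correction for length, the median deviations were -0.34, -0.06 and 0.41, and 57 of 63 members were highest in replicate 3, against 41% of all genes. The log2 difference of replicate 3 over replicate 1 then had a median of 0.74 over members. With that correction 15 members varied, against 1.49% of all genes. Of the 19 members that varied before it, 11 did so after it, and 8 lost the call: Hist1h2ae, Hist1h2ag, Hist1h2ak, Hist1h2an, Hist1h4a, Hist1h4b, Hist1h4f and Hist1h4n, at adjusted p of 0.068 to 0.44. Hist1h1c, Hist1h1d, Hist1h2bh and Hist1h3f gained it. The part of library depth or of the state of the cells in the remaining difference was not tested.

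**Figure D4:**
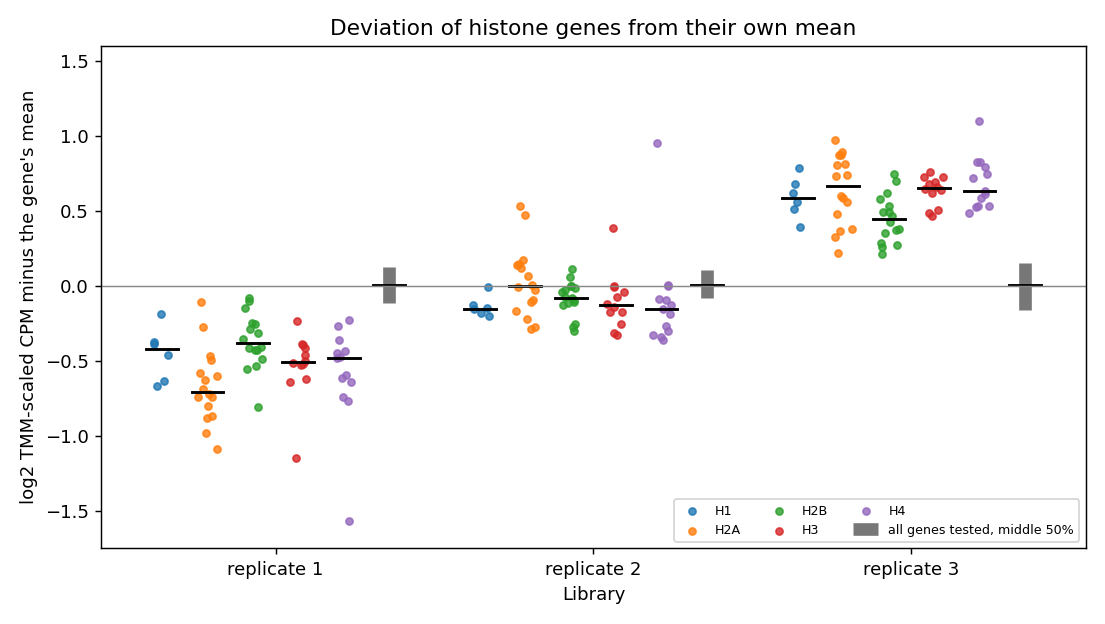
Deviation of each tested member from its own mean in each replicate, on TMM-scaled log2 CPM, with 1 point per gene, a black line at the median of each class and a grey bar for the middle 50% of all genes tested. All 63 members lie above 0 in replicate 3 and below 0 in replicate 1.

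Genes known to act on histone mRNA were measured in the same libraries. Of 17 genes for 3′ processing and decay, 16 reached a mean TPM of 1, and 0 of those 16 varied between replicates, also at an unadjusted p under 0.05 by edgeR's goodness-of-fit test. Over all genes the shares were 1.84% and, unadjusted, 6.96%, so a count of 0 in a list of this size, or of the sizes below, lies near the background. Their median log2 difference of replicate 3 over replicate 1 was 0.19 on TMM-scaled CPM, and 10 of 16 were highest in replicate 3, against 40.6% of all genes. Slbp, which encodes the stem-loop binding protein, stood at 31.09, 22.17 and 17.11 TPM, highest in replicate 1 on that scale. On TMM-scaled log2 CPM its difference of replicate 3 over replicate 1 was 0.00. Lsm11 and Lsm10, the U7-specific ring proteins, stood at 1.97 ± 0.247 and 8.02 ± 1.73 TPM, and Zfp473, a U7-associated zinc finger protein, at 1.69 ± 0.074 TPM. Casp8ap2, which encodes the processing cofactor FLASH, stood at 15.15, 11.27 and 12.46 TPM, and Cpsf3, the nuclease of 3′ cleavage, at 16.3 ± 3.90 TPM. Eri1, an exonuclease of histone mRNA decay, was at 8.02 ± 1.18 TPM. Rnu7, the U7 RNA itself, is listed at 0 in all replicates with an effective length of 0 nt, so these tables give no level for it.

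All 10 genes listed for histone gene transcription reached a mean TPM of 1, and 0 of 10 varied, also at an unadjusted p under 0.05 by the same edgeR test. Their median log2 difference of replicate 3 over replicate 1 was -0.06, and 4 of 10 were highest in replicate 3. Npat, the coactivator of histone gene bodies that cyclin E and CDK2 phosphorylate, stood at 11.27, 8.64 and 7.07 TPM. Hinfp, a factor of H4 promoters, stood at 5.94 ± 2.57 TPM. Among cyclins, Ccna2 reached 46.5 ± 6.85, Ccne1 14.4 ± 4.90 and Ccne2 2.99 ± 0.486 TPM, and Cdk2 stood at 25.08, 19.16 and 18.81 TPM.

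Replication-independent histone variants, whose mRNAs mostly carry poly(A) tails, gave a further reference. Of 12, 11 reached a mean TPM of 1 (H1foo, the oocyte H1, was listed at 0). None of the 11 varied, also at an unadjusted p under 0.05 by the edgeR test, and their median log2 difference of replicate 3 over replicate 1 was 0.15, against 1.11 for the members. H2afz, the H2A.Z gene, was highest of them at 204.83, 217.64 and 291.95 TPM. H2afx, which has the hairpin, stood at 54.14, 62.75 and 45.43 TPM, lowest in replicate 3 on that scale. On TMM-scaled log2 CPM it was lowest in replicate 1 and highest in replicate 2, with a log2 difference of replicate 3 over replicate 1 of 0.41. Values of these lists are set beside those of the members as descriptions, and the difference between lists was not tested.

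Near-identical copies limit every single-gene value above. RSEM divides a read that fits several genes among them, and 61 of 67 members had a fractional count in at least 1 replicate (over 0.005 from a whole number). The 6 with whole counts were Hist1h1a, Hist1h1b, Hist1h1t, Hist2h4, Hist4h4 and Hist2h2be. At least 50% of the 50-base windows recur in another gene in 32 members, among them Hist1h3h (93.9%), Hist1h2ap (93.1%), Hist1h2ah (90.7%) and Hist1h3i (87.6%). Values of such genes are uncertain. Summed counts over a class or a predicted protein are not affected by reads divided within them. Summed TPM can be, because each count is divided by its own gene's effective length. In replicate 1 that length was 274 nt for Hist1h3h and 1124 nt for Hist1h3f, both H3 genes. Both kinds of sum can still gain or lose reads where windows recur in genes outside the family. Hist2h2aa1, Hist2h2aa2, Hist2h3b, Hist2h3c1 and Hist2h3c2 share more windows with Gm20634 than with any other gene, and Hist2h2bb with Gm42743. How far this moves the sums was not tested.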

How the data were processed

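Only the 3 RNA-seq tables were used. Per the submitters' processing notes, STAR, RSEM and mm10 were among the tools and builds; versions, the annotation release and the strand setting are not given in the sources used here. Per the file headers, the authors deposited for each gene an estimated count (expected count, not normalized), TPM and FPKM (not used), with length and effective length. Ensembl IDs were looked up in GENCODE vM21 (GRCm38) for symbol, type and position, with 55141 of 55487 genes found on assembled chromosomes, and promoters came from RefSeq (GRCm38.p6).

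Expected counts were rounded for edgeR 4.0.16 in R 4.3.3: TMM scaling, filterByExpr, an intercept-only fit with a trended dispersion, and a goodness-of-fit test with Benjamini-Hochberg adjustment over all 12577 genes tested. It was tested on simulated data. Log2 CPM used a prior count of 2, and length was corrected by a lowess fit with span 0.3. Sums, shares and sequence searches used Python 3.11.15, pandas 2.3.3, numpy 2.4.6, scipy 1.17.1 and matplotlib 3.10.9. Predicted proteins were compared after translation of the longest annotated coding sequence of each gene. Alternatives changed the scale, length, filter, dispersion, size factors (DESeq2 1.42.0), detection limit and replicates used. Totals set the precision, and the floor covers counting error only.

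The members and lists were chosen with earlier results of these data known. Members given with every replicate were the 3 highest of each class by mean TPM, those that varied, the germ line members and those that a comparison turns on. Lists named were mRNA processing and decay, transcription, replication-independent variants, germ line members and cell type markers.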

Additional observations from a re-analysis of the deposited data

Results flagged for a closer look

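Genes of the same naming series that are annotated as pseudogenes lie outside the family as defined, and 3 of them carried counts above the floor of 3. Hist1h2aj (chr13:21721457-21721808, minus strand, an unprocessed pseudogene in GENCODE vM21) had a mean of 627.4 estimated counts, from 1003.01, 147.07 and 731.97 in replicates 1, 2 and 3. Its TPM was 172.09, 37.80 and 175.87, so replicate 2 stood far below both others, an order unlike that of the protein-coding H2A genes. It varied between replicates at an adjusted p of 3.09e-10 by edgeR's goodness-of-fit test. Its counts were fractional, so reads were divided between it and other genes. Hist1h2al had a mean of 21.1 counts (19.69, 21.31 and 22.19) and Hist3h2bb-ps a mean of 19.0 (18.08, 9.32 and 29.64).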

How the results depend on the processing

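Of 114 alternative values over 16 results, 75 stayed within the replicate spread or the limit for counts, 39 moved and 0 reversed. Shares and counts of genes have no sign that could reverse, so that 0 says nothing about them. The order of the classes did change in some settings, as given below. The share of protein-coding TPM was 1.86% by counts, 0.234% with fractional members left out, 2.11% without members that share at least 50% of windows, and 5.27 to 7.08% with each replicate left out. By counts, H1 took 12.7%, H2B 20.5% and H3 35.4% of the members' total, Hist1 85.6%, Hist3 1.00% and Hist4 2.21%. With full in place of effective length, H1 took 5.52%, Hist3 0.324% and Hist4 0.458%. With fractional members left out, H1 took 83.1%, H2B 0.0396%, H4 16.9%, Hist1 83.1%, Hist2 7.87% and Hist4 9.08%; no H2A, H3, Hist3 or pair value remained. Alternatives chosen after seeing the data follow. By coding length, H1 took 7.62%, H2B 21.04%, H3 33.8%, H4 29.7%, Hist1 84.9%, Hist3 1.00% and Hist4 2.78%. Without members that share at least 50% of windows, H1 took 13.8%, H2A 2.57%, H3 17.7%, H4 42.2%, Hist1 96.8%, Hist2 1.44%, Hist3 0.763% and Hist4 1.02%, so H4 and not H3 was then the largest class. H3 was also largest by counts and by coding length. Without mitochondrial genes the share of protein-coding TPM was 7.34%, against 6.30% in the main setting, a shift within the replicate SD of 1.86%. With each replicate left out, H1 ran from 4.59 to 4.63%, H2A 8.28 to 9.33%, H2B 24.7 to 28.0%, H3 36.8 to 37.8%, H4 21.99 to 24.15%, Hist1 87.9 to 89.0%, Hist2 10.4 to 11.5%, Hist3 0.235 to 0.279% and Hist4 0.318 to 0.356%. Members that varied numbered 31 with protein-coding genes alone (1.55% of all genes tested), 26 with a common dispersion (1.86%) and 1 to 11 with each replicate left out (0.474 to 0.709%). Across pairs, Pearson's r of log2(TPM + 0.1) was 0.152 and rho of CPM 0.280. The cause of these shifts was not tested, beyond the fewer genes or samples that each uses. No paired analysis was possible because only 1 group has expression tables, so replicate numbers pair nothing.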
